A study of Mus musculus with 18 samples.

Results

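The 12 libraries described here compare the response of 2 mesodermal fractions to the Wnt inhibitor IWR-1, gene by gene. For each of 13532 genes tested, of 20321 listed, the IWR-1 minus DMSO change of E+F− cells was subtracted from that of E+F+ cells, so a positive difference means that the change was higher, or less negative, in E+F+. The series holds 18 libraries, and the other 6, of unsorted cells, were used for description only. All cells came from 1 mouse embryonic stem (ES) cell line, GFP-Bry, in which green fluorescent protein reports the mesoderm gene Brachyury (T). According to the study's methods, embryoid bodies were dissociated and GFP-positive cells were sorted for endoglin (E, gene Eng) and Flk-1 (F, gene Kdr). The 4 groups, of 3 libraries each, were E+F+ cells with 10 µM IWR-1, E+F+ cells with DMSO, E+F− cells with 10 µM IWR-1 and E+F− cells with DMSO, all reaggregated for 24 h. Control and treated cells thus share the reporter allele, the line and the sort gates. The labels do not say whether they came from the same sort. E−F+ cells were not analysed here. Each group has libraries of Sets 1, 2 and 3, and values are given in that order. Gene coordinates are those of mm10.

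Canonical Wnt signals stop a destruction complex, built on the scaffold Axin, from marking β-catenin for degradation, and β-catenin then switches on genes together with TCF and LEF factors. IWR-1 stabilises Axin by inhibiting tankyrases, so that β-catenin is degraded and transcription through TCF and LEF falls. In early mesoderm, Wnt and bone morphogenetic protein (BMP) signals act together. They form and pattern the primitive streak, and the mesoderm that leaves it gives rise to blood, endothelium, heart and somites.

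The 2 fractions differed in identity after reaggregation. Summed over 7 markers of primitive blood (Tal1, Gata1, Klf1, Gfi1b, Hbb-bh1, Itga2b and Alas2), E+F+ libraries held 710 to 6956 TPM (abundance scaled to the same total in each library) and E+F− libraries 8.56 to 364 TPM. Summed over 5 streak markers (T, Mixl1, Mesp1, Eomes and Evx1), E+F+ libraries held 2.6 to 6.81 TPM and E+F− libraries 544 to 1093 TPM. T had at most 0.59 TPM and Mesp1 at most 0.63 TPM in any E+F+ library, and Msgn1, a paraxial mesoderm factor, was listed at 0 in all 6. After culture the RNA of the sorted marker Kdr did not follow the gate. It was at 24.7, 24.2 and 18.9 TPM in E+F+ cells with IWR-1, against 11.8, 13.4 and 7.69 TPM with DMSO, and 85.3, 105 and 29.1 TPM in E+F− cells with IWR-1, against 25.1, 75.3 and 37.5 TPM with DMSO, and every E+F+ library lay under every E+F− library. In bulk RNA, fewer cells of a type and less RNA per cell cannot be told apart. Set 3 stood apart in both fractions. Its E+F− libraries summed to 364 TPM (IWR-1) and 106 TPM (DMSO) of the blood markers, against at most 26.7 TPM in Sets 1 and 2, and to 938 and 366 TPM of the pluripotent markers Nanog, Pou5f1, Zfp42 and Esrrb, against at most 334 TPM in Sets 1 and 2 with IWR-1 and 212 TPM with DMSO. Of the blood marker sums of E+F− in Set 3, Hbb-bh1 alone held 338 TPM (IWR-1) and 86.8 TPM (DMSO). Summed expected counts were 19725500 to 26478754 per library.

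IWR-1 changed 227 genes in E+F+ cells (1.68% of genes tested, 143 lowered, or 1.06%, and 84 raised, or 0.621%) and 723 in E+F− cells (5.34%, 359 lowered, or 2.65%, and 364 raised, or 2.69%) at an adjusted p under 0.05 in edgeR's quasi-likelihood test. A larger count in one fraction is no test of a difference. That test passed for 127 genes, or 0.939% of those tested, 68 with a positive difference (0.503%) and 59 with a negative one (0.436%). The change was larger in size in E+F− for 97 of the 127, the 2 changes had opposite signs for 88, and the difference was at least 2-fold for 87. For all 127 the 3 paired changes of E+F+ did not overlap the 3 of E+F−, which also held for 18.7% of all genes tested. At an unadjusted p under 0.05 there were 1582 genes. The median difference over all genes was 0.00, and the 95% interval reached a median of 0.39 to either side of the estimate on the log2 scale, the scale of all effects below, which are given ± SE.

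The count rests on pairing the libraries of a Set. IWR-1 and DMSO libraries of the same fraction and Set deviated together from their group means (correlation across genes 0.303 to 0.779 in the 6 pairs of same-numbered libraries). The model held a block for each fraction and Set. In E+F−, Sets 1 and 2 were hardly separated as pairs. There the Set 1 pair correlated at 0.303, while IWR-1 of Set 2 correlated with DMSO of Set 1 at 0.467. Without the replicate block the difference passed for 6 genes, the E+F+ effect for 10 and the E+F− effect for 136. Leaving out Set 1 or Set 2 in both fractions left 27 or 42 differences, and leaving out the E+F+ pair of Set 1, 2 or 3 left 23, 19 or 27. Without the E+F− pair of Set 3 there were 230. Without the E+F+ pair of Set 1 or of Set 2, edgeR called 0 genes in E+F+ (1738 and 1122 at an unadjusted p under 0.05), and without Set 2 in both fractions also 0 (1040). Without Set 3 in both fractions 138 differences passed, 76 of them among the 127, and 56 of the 138 were positive, while 145 E+F+ effects and 547 E+F− effects passed. A fit to log2 TPM with limma put more of its calls on the positive side, 72.1% of 197 with 1 TPM added and 73.6% of 144 with 0.1 TPM added, where edgeR had 53.5%. Its median difference over all genes was 0.0872 and 0.104.

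**Figure D1:**
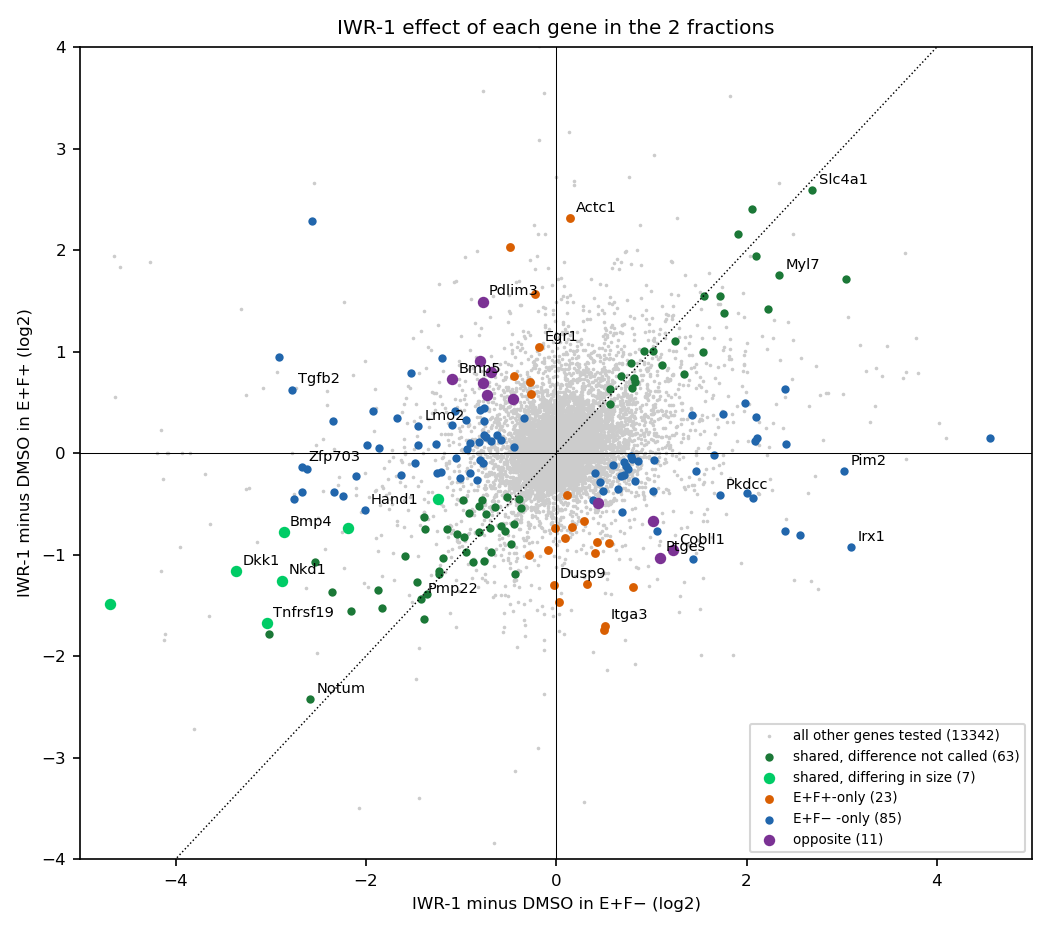
IWR-1 minus DMSO (log2) of each gene tested, in E+F+ (vertical axis) and E+F− (horizontal axis), coloured by response class, with 18 genes beyond the axes not drawn. Genes on the dotted diagonal changed equally, genes near the vertical line changed in E+F+ (23 E+F+-only genes), genes near the horizontal line in E+F− (85), and the 11 opposite genes lie in the upper left and lower right.

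Genes were sorted by these tests into classes. A shared response passed in both fractions in the same direction (70 genes, 47 lowered and 23 raised). An opposite response passed in both with opposite signs (11 genes). A fraction-only response passed in 1 fraction and in the difference but not in the other fraction (23 genes E+F+-only and 85 E+F−-only). Of these, 1 E+F+-only gene and 5 E+F−-only genes were under 1 CPM (count scaled to library size) in the other fraction, where a change could hardly be measured. Of the genes described below this applies to Irx1. Pawr passed for the difference with neither effect passing. A further 123 genes passed in E+F+ and 557 in E+F− without passing for the difference, and for these it is unknown whether the fractions responded alike. Without Set 3 in both fractions there were 56 shared, 4 opposite, 24 E+F+-only and 99 E+F−-only genes.

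Genes lowered in both fractions included 6 of the 25 Wnt target and feedback genes tested, against 47 of all 13532 genes tested. Notum, which encodes a secreted enzyme that inactivates Wnt proteins (chr11:120653788-120661175), was at 0.44, 1.12 and 1.01 TPM in E+F+ cells with IWR-1, against 3.41, 5.59 and 4.47 TPM with DMSO, and 1.61, 1.96 and 3.06 TPM in E+F− cells with IWR-1, against 14.3, 11 and 16.6 TPM with DMSO. The IWR-1 and DMSO ranges did not overlap in either fraction. Its effects were -2.42 ± 0.24 in E+F+ and -2.59 ± 0.21 in E+F−, a difference of 0.17 (95% interval -0.56 to 0.89, edgeR adjusted p = 0.897). Pmp22, a myelin and epithelial membrane protein gene, was at 104, 107 and 100.5 TPM in E+F+ cells with IWR-1, against 332, 317 and 204 TPM with DMSO, and 93.1, 88.2 and 72.3 TPM in E+F− cells with IWR-1, against 223, 229.7 and 269 TPM with DMSO. All 6 IWR-1 libraries lay between 72.3 and 107 TPM and all 6 DMSO libraries at 204 TPM or above. Its effects were -1.44 ± 0.14 in E+F+ and -1.42 ± 0.14 in E+F−, a difference of -0.02 (95% interval -0.45 to 0.41, edgeR adjusted p = 0.985).

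Other shared lowered genes were the protease gene Adamts17 (-1.78 in E+F+, -3.02 in E+F−), Robo2, a receptor of Slit guidance cues (-1.56, -2.16), Dlk1, an imprinted Notch-related ligand gene (-1.64, -1.40), and Agpat9, an acyltransferase of glycerolipid synthesis (-1.52, -1.83). The differences were 1.24, 0.60, -0.24 and 0.31, with 95% intervals of 0.36 to 2.11, -0.11 to 1.30, -1.07 to 0.59 and -0.59 to 1.2. None passed after adjustment (edgeR adjusted p = 0.227, 0.501, 0.862 and 0.829), although the unadjusted interval of Adamts17 excludes 0, and none was shown to be equal. Epas1, which encodes the hypoxia factor HIF-2α, is among the genes the study names. It was at 6.51, 6.15 and 14.5 TPM in E+F+ cells with IWR-1, against 18.9, 16.5 and 20.7 TPM with DMSO, and 0.22, 0.36 and 0.78 TPM in E+F− cells with IWR-1, against 0.61, 0.83 and 2.03 TPM with DMSO. The effects were -1.17 ± 0.17 in E+F+ and -1.24 ± 0.26 in E+F−, a difference of 0.07 (95% interval -0.64 to 0.78, edgeR adjusted p = 0.955), at levels far lower in E+F− than in E+F+.

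The shared lowered genes were not all lowered equally. In 7 of the 47 the difference itself passed, and in all 7 the fall was larger in E+F−. Bmp4, a BMP ligand of the early mesoderm (chr14:46383520-46390669), had the smallest p of any gene. It was at 73.1, 102 and 79.2 TPM in E+F+ cells with IWR-1, against 137, 173 and 121 TPM with DMSO, and 14.4, 17.3 and 16.8 TPM in E+F− cells with IWR-1, against 106, 156 and 118 TPM with DMSO. With IWR-1 the E+F+ libraries lay at 73.1 to 102 TPM and the E+F− libraries at 14.4 to 17.3 TPM, and with DMSO the 2 fractions overlapped. Its effects were -0.78 ± 0.08 in E+F+ and -2.87 ± 0.09 in E+F−, a difference of 2.09 (95% interval 1.81 to 2.36, edgeR adjusted p = 0.000219).

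The 7 included 3 Wnt feedback genes. Dkk1, which encodes a secreted inhibitor of Wnt co-receptors (chr19:30545863-30549665), was at 11.2, 3.87 and 6.09 TPM in E+F+ cells with IWR-1, against 17, 11.3 and 15.7 TPM with DMSO, and 4, 5.4 and 5.6 TPM in E+F− cells with IWR-1, against 56.2, 45.6 and 63.2 TPM with DMSO. Its effects were -1.16 ± 0.20 in E+F+ and -3.36 ± 0.20 in E+F−, a difference of 2.20 (95% interval 1.58 to 2.82, edgeR adjusted p = 0.0086). Nkd1, an inhibitor of Dishevelled, was at 5.31, 6.87 and 6.54 TPM in E+F+ cells with IWR-1, against 12.4, 17.5 and 14.5 TPM with DMSO, and 9.63, 11.7 and 3.55 TPM in E+F− cells with IWR-1, against 71, 67.3 and 43.1 TPM with DMSO, with effects of -1.26 ± 0.17 in E+F+ and -2.88 ± 0.17 in E+F−, a difference of 1.62 (95% interval 1.09 to 2.15, edgeR adjusted p = 0.0163). Tnfrsf19 (Troy), a receptor gene and Wnt target (chr14:60963875-61046490), was at 3.21, 4.98 and 2.61 TPM in E+F+ cells with IWR-1, against 12, 13.9 and 8.7 TPM with DMSO, and 6.3, 8.02 and 9.46 TPM in E+F− cells with IWR-1, against 79.6, 55.5 and 76.7 TPM with DMSO, with effects of -1.68 ± 0.17 in E+F+ and -3.04 ± 0.16 in E+F−, a difference of 1.36 (95% interval 0.85 to 1.88, edgeR adjusted p = 0.0309). With IWR-1 the 2 fractions overlapped for Dkk1 and Nkd1, and Tnfrsf19 was lower in every E+F+ library than in any E+F− library. With DMSO every E+F+ library stood below every E+F− library in each of these 3 genes. Without Set 3 the difference of Tnfrsf19 was 1.48 with an edgeR adjusted p of 0.061. Also among the 7, and named after their values were seen, were the amino acid transporter gene Slc38a4 (-0.74 and -2.18) and the adaptor gene Dok4 (-0.45 and -1.24).

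**Figure D2:**
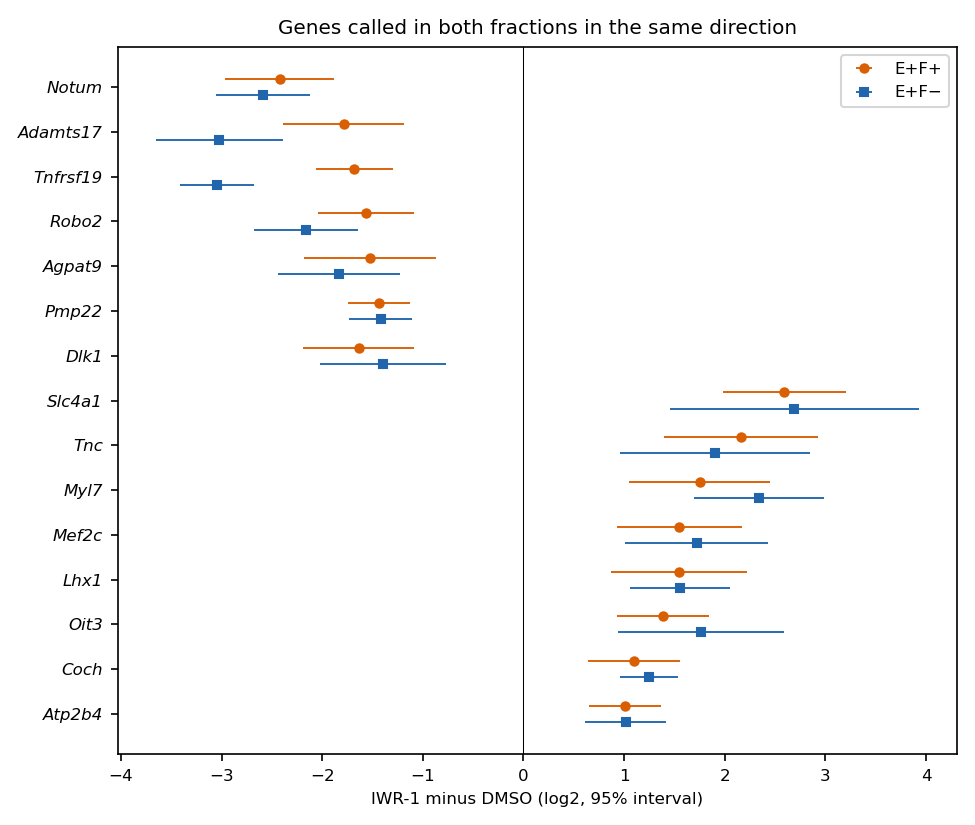
IWR-1 minus DMSO (log2) with its 95% interval in E+F+ (circles) and E+F− (squares) for 7 lowered and 8 raised genes among those with the largest shared change. Intervals of the 2 fractions overlap for most genes, and stand apart for Tnfrsf19.

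Among the 23 shared raised genes no difference passed. Slc4a1, the anion exchanger of red cells, was at 2.76, 0.68 and 5.58 TPM in E+F+ cells with IWR-1, against 0.54, 0.06 and 0.93 TPM with DMSO, and 0.03, 0 and 1.03 TPM in E+F− cells with IWR-1, against 0, 0 and 0.17 TPM with DMSO. In E+F− it was listed at 0 in Sets 1 and 2 with DMSO, and its values came mostly from Set 3, which also had the highest sum of blood markers, whose part in the result was not tested. Its effects were 2.59 ± 0.27 in E+F+ and 2.69 ± 0.54 in E+F−, a difference of -0.10 (95% interval -1.56 to 1.37, edgeR adjusted p = 0.949). Myl7, the atrial myosin light chain, was at 27.1, 31.6 and 15.1 TPM in E+F+ cells with IWR-1, against 9.07, 8.9 and 3.97 TPM with DMSO, and 172, 107 and 27.8 TPM in E+F− cells with IWR-1, against 18.6, 24.4 and 12.1 TPM with DMSO. Its effects were 1.75 ± 0.31 in E+F+ and 2.34 ± 0.29 in E+F−, a difference of -0.59 (95% interval -1.54 to 0.36, edgeR adjusted p = 0.652). Mef2c, a heart and endothelial transcription factor, rose by 1.55 ± 0.28 in E+F+ and 1.72 ± 0.32 in E+F−, with at most 0.89 TPM in any DMSO library. Lhx1, a factor of the streak and its derivatives, rose by 1.55 ± 0.30 and 1.55 ± 0.22 from levels that differed widely: 4.22, 4.03 and 2.36 TPM in E+F+ cells with IWR-1, against 1.32, 1.58 and 0.73 TPM with DMSO, and 116, 154 and 55.8 TPM in E+F− cells with IWR-1, against 31.7, 41 and 37.5 TPM with DMSO. The extracellular matrix gene Tnc, the secreted protein genes Oit3 and Coch and the calcium pump gene Atp2b4 also rose in both, by 2.16, 1.38, 1.10 and 1.01 in E+F+ and 1.91, 1.77, 1.24 and 1.02 in E+F−. Oit3 averaged only 0.723 CPM with IWR-1 and 0.198 CPM with DMSO in E+F−, where a change could hardly be measured. Tnc in E+F− was highest in Set 3, at 3.52 TPM with IWR-1 and 1.9 TPM with DMSO. Its other E+F− libraries held at most 0.53 TPM.

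The largest class, E+F−-only, held 47 lowered and 38 raised genes. Several of the lowered genes encode transcription factors of mesoderm. Hand1, a factor of extraembryonic and heart mesoderm (chr11:57828705-57832818), was at 570.4, 687 and 534 TPM in E+F+ cells with IWR-1, against 846, 968 and 794 TPM with DMSO, and 52.3, 48.8 and 38.7 TPM in E+F− cells with IWR-1, against 165, 294 and 161 TPM with DMSO. Its level in every E+F+ library was above that in every E+F− library. Its effects were -0.56 ± 0.13 in E+F+ and -2.01 ± 0.13 in E+F−, a difference of 1.45 (95% interval 1.05 to 1.86, edgeR adjusted p = 0.00851), and the E+F+ effect did not pass (edgeR adjusted p = 0.0668). Lmo2, a bridging protein of blood and endothelial transcription complexes (chr2:103957986-103981878), was at 46.9, 40.5 and 68.6 TPM in E+F+ cells with IWR-1, against 37.6, 33.6 and 58.2 TPM with DMSO, and 7.4, 9.12 and 9.03 TPM in E+F− cells with IWR-1, against 24.6, 24.6 and 26.8 TPM with DMSO. With IWR-1 its E+F− level lay at 7.4 to 9.12 TPM, under every DMSO library. Its effects were 0.27 ± 0.10 in E+F+ and -1.45 ± 0.11 in E+F−, a difference of 1.72 (95% interval 1.39 to 2.05, edgeR adjusted p = 0.00152), and in E+F+ each Set had more Lmo2 with IWR-1 than with DMSO.

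Zfp703, a zinc-finger repressor, was at 10.6, 11.6 and 12.7 TPM in E+F+ cells with IWR-1, against 11.5, 14 and 12.6 TPM with DMSO, and 8.32, 6.75 and 14.3 TPM in E+F− cells with IWR-1, against 67.1, 51.8 and 72.1 TPM with DMSO. All 9 libraries other than those of E+F− with DMSO lay between 6.75 and 14.3 TPM. Its effects were -0.14 ± 0.13 in E+F+ and -2.67 ± 0.14 in E+F−, a difference of 2.53 (95% interval 2.11 to 2.95, edgeR adjusted p = 0.000691). Isl1, a factor of second heart field progenitors, was at 0.77, 0.69 and 0.97 TPM in E+F+ cells with IWR-1, against 0.29, 0.45 and 0.5 TPM with DMSO, and 7.05, 5.26 and 3.35 TPM in E+F− cells with IWR-1, against 16.6, 13.8 and 7.97 TPM with DMSO. It was low in E+F+ throughout, and its effects were 0.93 ± 0.23 in E+F+ and -1.2 ± 0.15 in E+F−, a difference of 2.13 (95% interval 1.52 to 2.74, edgeR adjusted p = 0.00871). Foxf1, a factor of lateral and extraembryonic mesoderm, was at 76.9, 93.8 and 61.3 TPM in E+F+ cells with IWR-1, against 105, 121 and 80.9 TPM with DMSO, and 24.9, 38.2 and 4.86 TPM in E+F− cells with IWR-1, against 108, 138 and 47.1 TPM with DMSO. With IWR-1 it was lower in each Set of both fractions, with effects of -0.42 ± 0.19 in E+F+ and -2.24 ± 0.21 in E+F−, a difference of 1.82 (95% interval 1.19 to 2.46, edgeR adjusted p = 0.0229).

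BMP and Smad1 target genes, a list of 17 genes tested, had the largest number of positive differences of the 28 lists. The difference passed for 6 and was positive in each, 1 rose and none was lowered in E+F+, and 8 were lowered in E+F−. Over all genes tested 0.503% had a positive difference that passed, 0.621% rose and 1.06% were lowered in E+F+, and 2.65% were lowered in E+F−. The median difference was 0.63 over the list and 0.00 over all genes. Without Set 3, 4 differences passed and 6 members were lowered in E+F−. Besides Hand1, the members were Gata3, a GATA factor, at 5.07, 4.32 and 2.91 TPM in E+F+ cells with IWR-1, against 4.5, 4.69 and 4.82 TPM with DMSO, and 4.82, 3.82 and 2.57 TPM in E+F− cells with IWR-1, against 19.2, 12.8 and 19.6 TPM with DMSO, and Bambi, a decoy receptor of BMP signals, at 32.5, 35.7 and 29.8 TPM in E+F+ cells with IWR-1, against 36.4, 45.2 and 30.4 TPM with DMSO, and 26, 29.1 and 21.1 TPM in E+F− cells with IWR-1, against 84, 61.4 and 50.6 TPM with DMSO. In both genes the E+F− DMSO libraries stood above all others. Their effects were -0.23 ± 0.24 in E+F+ and -2.10 ± 0.24 in E+F− (edgeR adjusted p of the difference = 0.0386) for Gata3 and -0.20 ± 0.12 in E+F+ and -1.25 ± 0.12 in E+F− (edgeR adjusted p of the difference = 0.0245) for Bambi, and Bambi lost its call without Set 3 (edgeR adjusted p = 0.0753). Msx2 and Cited2, named after their values were seen, had -0.22 ± 0.18 and 0.11 ± 0.12 in E+F+ and were lowered in E+F− (-1.63 ± 0.19 and -0.82 ± 0.12). Id4, also named after its values were seen, was the exception: it rose in E+F+ (1.57 ± 0.24) and had -0.22 ± 0.23 in E+F−. The classical targets Id1, Id2 and Id3 and Smad1 itself did not pass in any test, with differences of 0.63 ± 0.27, 0.22 ± 0.21, 0.34 ± 0.26 and 0.09 ± 0.27. Id1 was at 184, 171 and 99.8 TPM in E+F+ cells with IWR-1, against 94.2, 119 and 93.2 TPM with DMSO, and 405, 404 and 396 TPM in E+F− cells with IWR-1, against 534, 325 and 574 TPM with DMSO.

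Other genes lowered in E+F− alone encode signals and receptors. Tgfb2, a transforming growth factor gene (chr1:186622792-186705989), was at 2.06, 4.93 and 4.82 TPM in E+F+ cells with IWR-1, against 1.49, 2.44 and 3.62 TPM with DMSO, and 1.04, 1.45 and 5.4 TPM in E+F− cells with IWR-1, against 12, 14 and 21.6 TPM with DMSO. Its effects were 0.63 ± 0.27 in E+F+ and -2.78 ± 0.28 in E+F−, a difference of 3.41 (95% interval 2.54 to 4.27, edgeR adjusted p = 0.00645). Kitl, which encodes stem cell factor, the ligand of Kit (chr10:100015630-100100416), was at 3.25, 2.07 and 1.81 TPM in E+F+ cells with IWR-1, against 2.06, 2.1 and 1.43 TPM with DMSO, and 1.13, 1.17 and 1.39 TPM in E+F− cells with IWR-1, against 8.99, 6.18 and 5.22 TPM with DMSO. The 3 E+F− DMSO libraries stood above all others, with effects of 0.32 ± 0.21 in E+F+ and -2.35 ± 0.22 in E+F−, a difference of 2.67 (95% interval 1.98 to 3.35, edgeR adjusted p = 0.00645). Wnt5b, a ligand of mostly non-canonical Wnt signalling, was at 0.8, 1.56 and 0.54 TPM in E+F+ cells with IWR-1, against 0.78, 1.22 and 1.1 TPM with DMSO, and 5.81, 8.31 and 6.67 TPM in E+F− cells with IWR-1, against 50.4, 33 and 59.4 TPM with DMSO. It lay between 0.54 and 1.56 TPM in E+F+ throughout, with effects of -0.16 ± 0.38 in E+F+ and -2.62 ± 0.25 in E+F−, a difference of 2.46 (95% interval 1.44 to 3.48, edgeR adjusted p = 0.0434). The receptor genes Nrp2, a co-receptor of semaphorins and VEGF (chr1:62703285-62818695), and Adra2b, an adrenergic receptor, followed. Nrp2 was at 5.02, 4.78 and 6.14 TPM in E+F+ cells with IWR-1, against 5.15, 3.38 and 3.85 TPM with DMSO, and 7.25, 11.1 and 19.4 TPM in E+F− cells with IWR-1, against 26.6, 36.4 and 66.5 TPM with DMSO, with effects of 0.34 ± 0.13 in E+F+ and -1.67 ± 0.12 in E+F−, a difference of 2.01 (95% interval 1.63 to 2.40, edgeR adjusted p = 0.00152). Adra2b had effects of 0.79 ± 0.19 in E+F+ and -1.52 ± 0.19 in E+F−, a difference of 2.31 (95% interval 1.71 to 2.91, edgeR adjusted p = 0.00645).

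Fbxl14, which encodes an F-box protein that targets EMT factors such as Snai1 for degradation, was at 34.9, 30.7 and 36.6 TPM in E+F+ cells with IWR-1, against 30.7, 30.4 and 34.8 TPM with DMSO, and 37.9, 44.2 and 43 TPM in E+F− cells with IWR-1, against 135, 99.9 and 132 TPM with DMSO. All libraries but the 3 of E+F− with DMSO lay between 30.4 and 44.2 TPM, with effects of 0.08 ± 0.12 in E+F+ and -1.45 ± 0.12 in E+F−, a difference of 1.53 (95% interval 1.14 to 1.92, edgeR adjusted p = 0.00645). Of the cell cycle inhibitors, Cdkn1a had 0.45 ± 0.16 in E+F+ and -0.76 ± 0.16 in E+F− (edgeR adjusted p of the difference = 0.0404) and Cdkn1c 0.11 ± 0.09 in E+F+ and -0.69 ± 0.09 in E+F− (edgeR adjusted p of the difference = 0.0259). The imprinted gene Peg3 was lowered in E+F−, with -0.19 ± 0.10 in E+F+ and -1.22 ± 0.10 in E+F− (edgeR adjusted p of the difference = 0.0138). Without Set 3 the differences of Cdkn1c and Peg3 had an edgeR adjusted p of 0.0707 and 0.056.

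**Figure D3:**
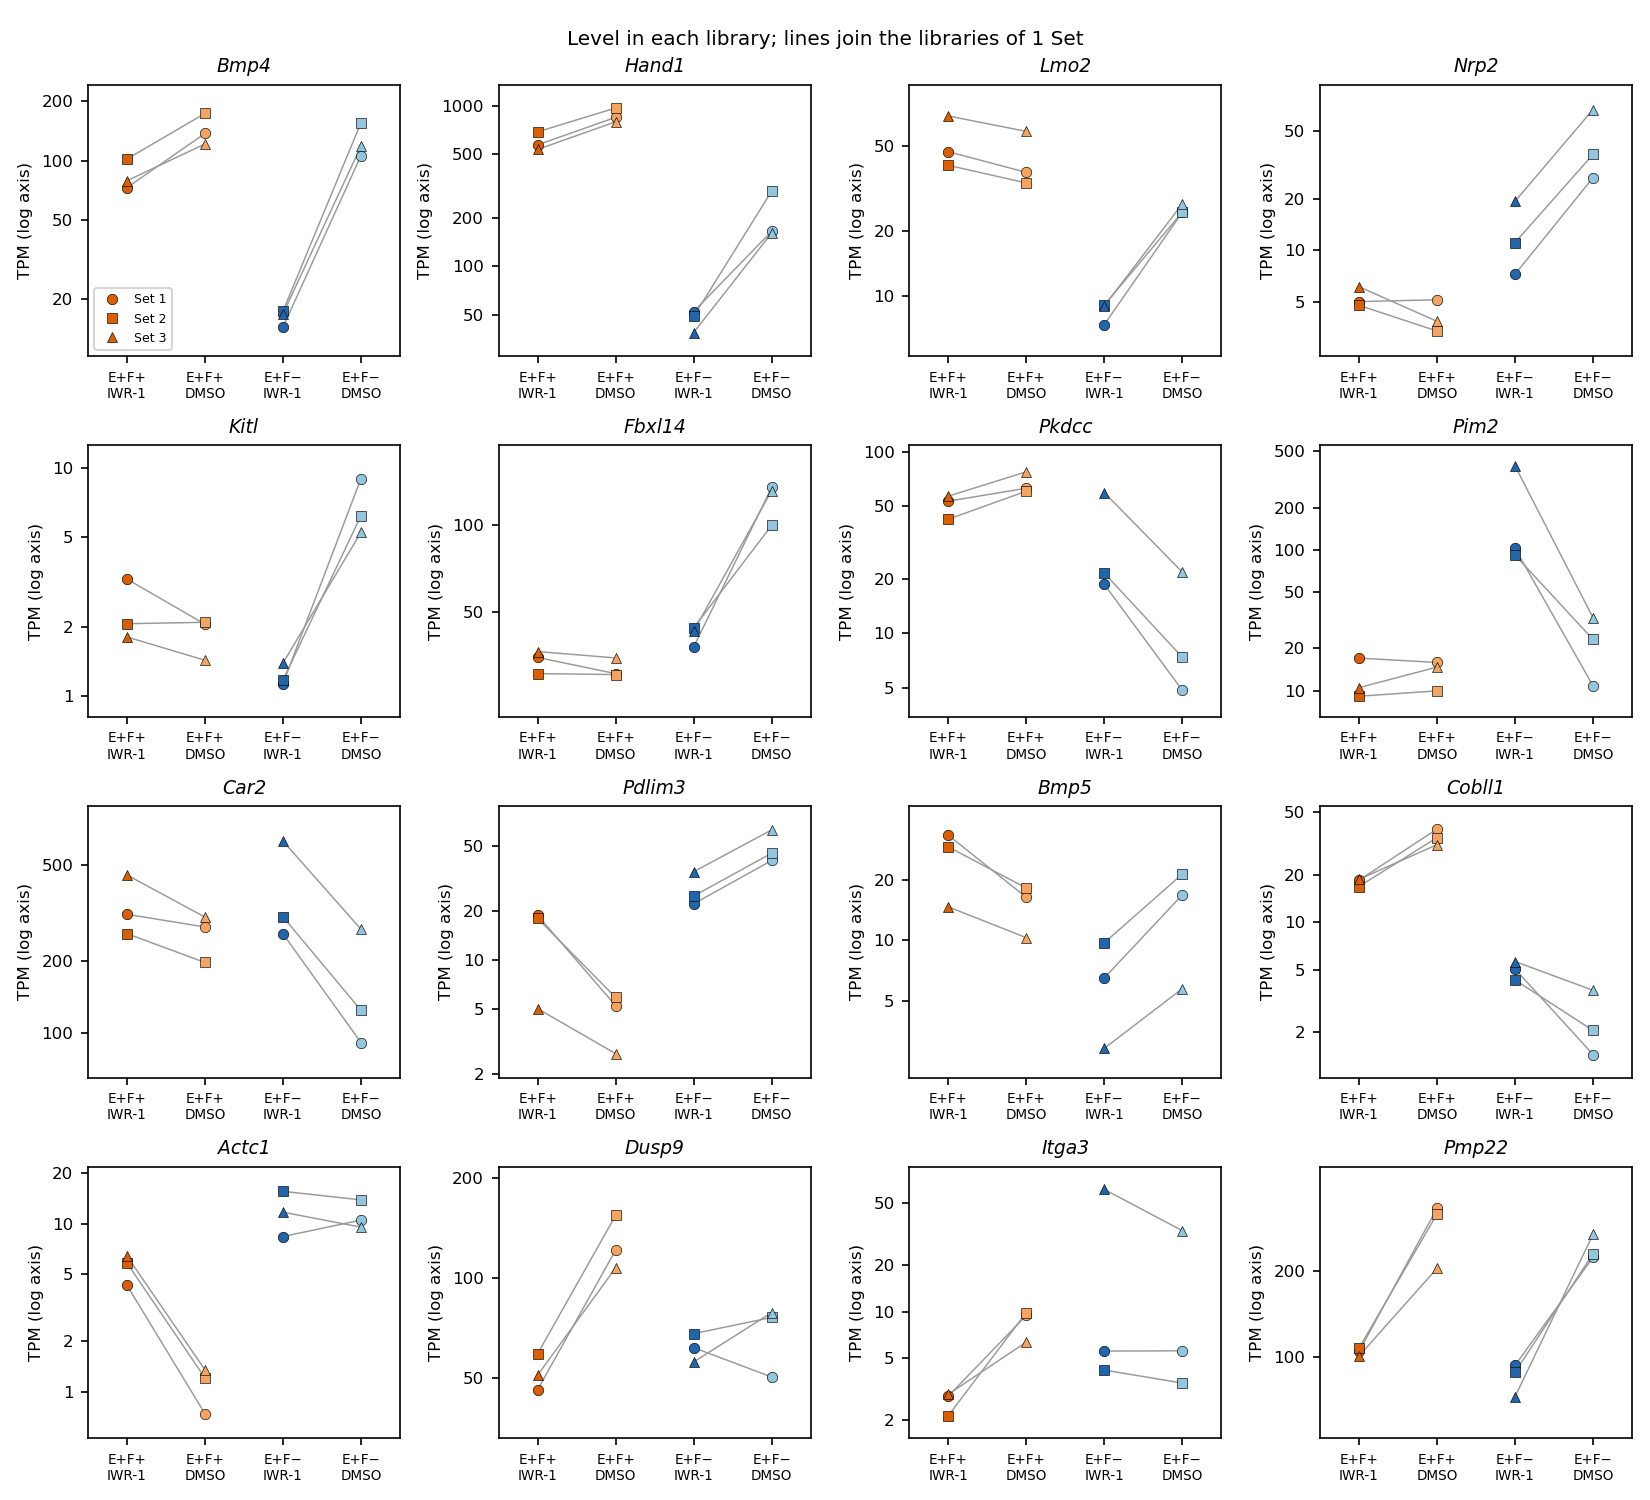
TPM (log axis) of 16 genes in each of the 12 libraries, with E+F+ IWR-1, E+F+ DMSO, E+F− IWR-1 and E+F− DMSO from left to right and lines joining the 2 libraries of a Set. Bmp4, Hand1, Lmo2, Nrp2, Kitl and Fbxl14 fall steeply with IWR-1 in E+F−, Pkdcc, Pim2 and Car2 rise there, Pdlim3, Bmp5 and Cobll1 slope in opposite directions, Actc1, Dusp9 and Itga3 change in E+F+, and Pmp22 falls in both.

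Among the 38 genes raised in E+F− alone, Pkdcc, a secreted tyrosine kinase gene (chr17:83215292-83225070), was at 53.4, 42.5 and 56.9 TPM in E+F+ cells with IWR-1, against 63, 60.7 and 77.6 TPM with DMSO, and 18.6, 21.4 and 59.6 TPM in E+F− cells with IWR-1, against 4.85, 7.38 and 21.7 TPM with DMSO. It rose in each E+F− pair and was lower with IWR-1 in each E+F+ pair. Its effects were -0.41 ± 0.09 in E+F+ and 1.72 ± 0.10 in E+F−, a difference of -2.13 (95% interval -2.45 to -1.82, edgeR adjusted p = 0.000364). Pim2, a survival kinase gene (chrX:7878262-7883432), was at 17.1, 9.17 and 10.6 TPM in E+F+ cells with IWR-1, against 15.9, 10.0 and 14.8 TPM with DMSO, and 103, 92 and 395 TPM in E+F− cells with IWR-1, against 10.9, 23.2 and 33.1 TPM with DMSO. Its effects were -0.18 ± 0.26 in E+F+ and 3.03 ± 0.26 in E+F−, a difference of -3.21 (95% interval -4.01 to -2.40, edgeR adjusted p = 0.00645). In Set 3, whose E+F− libraries also had the highest sum of pluripotent markers, Pim2 was highest in both treatments, and the part of those markers in the result was not tested. Pim2 still passed without Set 3. Emb, which encodes the adhesion protein embigin, was at 31.7, 34.7 and 21.8 TPM in E+F+ cells with IWR-1, against 32.1, 36.4 and 23.5 TPM with DMSO, and 309.8, 322 and 148 TPM in E+F− cells with IWR-1, against 188, 179.7 and 89 TPM with DMSO, with effects of -0.08 ± 0.08 in E+F+ and 0.86 ± 0.07 in E+F−, a difference of -0.94 (95% interval -1.17 to -0.70, edgeR adjusted p = 0.00645). Its E+F− level was above its E+F+ level in every library.

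Car2, carbonic anhydrase 2 of red cells and other cells, was at 313, 259.7 and 456 TPM in E+F+ cells with IWR-1, against 277, 197 and 304 TPM with DMSO, and 259, 305 and 632 TPM in E+F− cells with IWR-1, against 91.3, 124 and 271 TPM with DMSO. It was higher with IWR-1 in each Set of both fractions, with effects of 0.37 ± 0.08 in E+F+ and 1.43 ± 0.09 in E+F−, a difference of -1.06 (95% interval -1.33 to -0.79, edgeR adjusted p = 0.00645). The sum of the blood markers in E+F− ran from 13.9 to 364 TPM with IWR-1 (median 26.1), against 8.56 to 106 TPM with DMSO (median 26.7). Most of the highest sum in each treatment was Hbb-bh1 of Set 3, at 338 TPM with IWR-1 and 86.8 TPM with DMSO. Gata1, a defining factor of red cells, was at 0.59, 1.04 and 3.57 TPM in E+F− cells with IWR-1, against 0.63, 0.69 and 2.26 TPM with DMSO. The part of these markers in the result was not tested. Efnb2, an ephrin ligand of arterial endothelium, had -0.27 ± 0.10 in E+F+ and 0.83 ± 0.10 in E+F− (edgeR adjusted p of the difference = 0.00919). Irx1, an Iroquois factor, was at or under 0.74 TPM in E+F+ and was at 6.09, 7.01 and 1.27 TPM in E+F− cells with IWR-1, against 0.64, 0.9 and 0.21 TPM with DMSO. Its effects were -0.93 ± 0.40 in E+F+ and 3.10 ± 0.32 in E+F− (edgeR adjusted p of the difference = 0.0086). The E+F+ libraries averaged 0.364 CPM with IWR-1 and 0.7 CPM with DMSO, too low to measure a change there, and the difference includes that E+F+ effect.

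Also raised in E+F− only were genes known from epiblast and epithelium. L1td1, an RNA-binding protein of pluripotent cells, was at 3.79, 3.6 and 2.76 TPM in E+F+ cells with IWR-1, against 2.71, 2.87 and 1.61 TPM with DMSO, and 30.2, 37.2 and 201 TPM in E+F− cells with IWR-1, against 6.72, 13.9 and 47.2 TPM with DMSO, with effects of 0.50 ± 0.17 in E+F+ and 1.98 ± 0.13 in E+F− (edgeR adjusted p of the difference = 0.0151). Zic2, a zinc-finger factor of epiblast and neural plate, was at 4.33, 4.23 and 2.91 TPM in E+F+ cells with IWR-1, against 2.67, 2.89 and 3.25 TPM with DMSO, and 65.8, 65.7 and 70.4 TPM in E+F− cells with IWR-1, against 11.4, 19.3 and 21 TPM with DMSO, with effects of 0.35 ± 0.21 in E+F+ and 2.10 ± 0.17 in E+F− (edgeR adjusted p of the difference = 0.0229). Cdh1, E-cadherin, had -0.23 ± 0.13 in E+F+ and 0.68 ± 0.09 in E+F− (edgeR adjusted p of the difference = 0.031), and Tcf7l1, the mainly repressive member of the TCF family, -0.13 ± 0.10 in E+F+ and 0.73 ± 0.10 in E+F− (edgeR adjusted p of the difference = 0.0229). Of 24 pluripotency genes, none was raised and 1 was lowered in E+F+, and 10 were raised and 1 was lowered in E+F−, against 0.621% raised and 1.06% lowered in E+F+ and 2.69% raised and 2.65% lowered in E+F− over all genes. Here the difference passed for L1td1 only. Nanog, Pou5f1 and Sox2 were raised in E+F− by 2.24, 1.36 and 1.54, and their differences of -2.18, -1.71 and -1.85 did not pass. Without Set 3, 8 were raised in E+F− and 2 differences passed. Set 3 had the highest level of Pou5f1 in both E+F− groups, which held 279, 254 and 827 TPM in E+F− cells with IWR-1, against 71.1, 186 and 317 TPM with DMSO. The sum of the pluripotent markers in E+F− ran from 292 to 938 TPM with IWR-1, against 81.8 to 366 TPM with DMSO, and its part in the rise of L1td1, Zic2 and Cdh1 was not tested. Spry2, a feedback inhibitor of FGF signals, had effects of -0.46 ± 0.11 in E+F+ and 0.39 ± 0.09 in E+F− (edgeR adjusted p of the difference = 0.0282), and neither Spry2 nor Cdh1 passed without Set 3 (edgeR adjusted p = 0.0786 and 0.103).

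Promoters of all genes tested were searched for CTTTGAT, letters that TCF and LEF factors recognise, on either strand (the other strand reads ATCAAAG). The windows run from 250 bases before to 50 bases after a listed start of a gene (RefSeq, GRCm38.p6). A gene can have several, and 10154 genes tested had at least 1. At least 1 window held the letters in 314 (3.09%) of these genes, in 2 of 30 shared lowered and 1 of 19 shared raised genes, 0 of 14 E+F+-only lowered and 1 of 4 E+F+-only raised genes, 4 of 36 E+F−-only lowered and 2 of 22 E+F−-only raised genes, and 0 of 9 opposite genes. In the whole table, 3.73% of 32851 windows held them. The counts are small, and a match of letters is no binding site. Of the genes with the strongest differences or largest shared changes, the following 4 held them, shown with the letters in capitals because they span 1 shared gene (Tnfrsf19), 1 gene lowered in E+F− (Nrp2) and 2 raised there (Emb and Pim2). The windows are chr14:61037938-61038237 on the minus strand and chr1:62703067-62703366, chr13:117220323-117220622 and chrX:7878056-7878355 on the plus strand. The first capital lies 202, 146, 156 and 65 bases before the listed start of that window. For Tnfrsf19 (chr14:60963875-61046490, 1 of 2 windows) and Emb (chr13:117208536-117274415) the window lies inside the gene, away from its outermost start.
Tnfrsf19 promoter: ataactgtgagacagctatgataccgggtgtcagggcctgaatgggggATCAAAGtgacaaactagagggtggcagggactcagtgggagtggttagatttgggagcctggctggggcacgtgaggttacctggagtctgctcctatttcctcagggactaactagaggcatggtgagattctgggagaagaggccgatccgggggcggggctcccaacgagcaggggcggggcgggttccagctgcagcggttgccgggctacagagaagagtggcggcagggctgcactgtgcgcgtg
Nrp2 promoter: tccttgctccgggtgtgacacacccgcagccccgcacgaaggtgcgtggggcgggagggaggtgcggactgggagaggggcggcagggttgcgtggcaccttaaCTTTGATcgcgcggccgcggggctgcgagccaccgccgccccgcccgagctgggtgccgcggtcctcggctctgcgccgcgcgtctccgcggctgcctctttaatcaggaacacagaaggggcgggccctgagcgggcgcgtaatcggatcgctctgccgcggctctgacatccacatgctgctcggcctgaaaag
Emb promoter: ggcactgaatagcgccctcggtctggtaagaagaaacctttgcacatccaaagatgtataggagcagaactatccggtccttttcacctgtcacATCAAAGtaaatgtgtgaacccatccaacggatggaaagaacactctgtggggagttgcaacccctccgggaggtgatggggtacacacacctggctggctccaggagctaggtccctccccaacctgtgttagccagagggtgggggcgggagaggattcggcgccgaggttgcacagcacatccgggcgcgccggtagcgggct
Pim2 promoter: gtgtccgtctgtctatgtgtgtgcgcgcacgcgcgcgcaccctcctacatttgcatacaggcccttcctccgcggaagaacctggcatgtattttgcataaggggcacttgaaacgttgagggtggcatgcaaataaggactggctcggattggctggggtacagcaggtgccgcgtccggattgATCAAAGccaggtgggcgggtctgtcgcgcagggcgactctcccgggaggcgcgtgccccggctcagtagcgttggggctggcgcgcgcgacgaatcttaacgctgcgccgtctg
Genes that fell and genes that rose carried the same letters.

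E+F+-only responses were fewer, with 16 genes lowered and 7 raised. Dusp9, a phosphatase of MAP kinases (chrX:73639419-73643514), was at 46.1, 59.1 and 51 TPM in E+F+ cells with IWR-1, against 121, 154 and 107 TPM with DMSO, and 61.7, 67.9 and 55.9 TPM in E+F− cells with IWR-1, against 50.3, 76 and 78.6 TPM with DMSO. The E+F+ DMSO libraries stood above the other 9, and the effects were -1.30 ± 0.12 in E+F+ and -0.03 ± 0.12 in E+F−, a difference of -1.27 (95% interval -1.66 to -0.88, edgeR adjusted p = 0.0131). Itga3, an integrin subunit of laminin receptors (chr11:95044474-95076801), was at 2.86, 2.14 and 2.94 TPM in E+F+ cells with IWR-1, against 9.48, 9.89 and 6.38 TPM with DMSO, and 5.58, 4.21 and 61.5 TPM in E+F− cells with IWR-1, against 5.6, 3.47 and 33.3 TPM with DMSO. The E+F− libraries of Set 3 stood far above the rest in both treatments. Its effects were -1.70 ± 0.21 in E+F+ and 0.51 ± 0.20 in E+F−, a difference of -2.21 (95% interval -2.86 to -1.55, edgeR adjusted p = 0.0105), and the difference passed without Set 3. Mid1ip1, a regulator of fatty acid synthesis (chrX:10715013-10719690), was at 70.3, 58.1 and 62.5 TPM in E+F+ cells with IWR-1, against 136, 126 and 111 TPM with DMSO, and 14, 13.9 and 18.5 TPM in E+F− cells with IWR-1, against 8.12, 13.9 and 16.1 TPM with DMSO. Its effects were -0.98 ± 0.11 in E+F+ and 0.41 ± 0.13 in E+F−, a difference of -1.39 (95% interval -1.77 to -1.01, edgeR adjusted p = 0.00835). Cxcr4, the receptor of the chemokine Cxcl12, had effects of -0.67 ± 0.12 in E+F+ and 0.29 ± 0.11 in E+F− (edgeR adjusted p of the difference = 0.0319).

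Cholesterol synthesis was the list with the most genes lowered in E+F+, 13 of 29, with 2 of 29 lowered in E+F−, where all genes gave 1.06% and 2.65%. The difference passed for 1 of the 29, Mvd, a decarboxylase of the mevalonate pathway, which was at 95.1, 61.6 and 72.6 TPM in E+F+ cells with IWR-1, against 165, 143 and 140.3 TPM with DMSO, and 46.7, 33 and 44.8 TPM in E+F− cells with IWR-1, against 56.6, 47.1 and 57.5 TPM with DMSO. Its effects were -1.0 ± 0.09 in E+F+ and -0.29 ± 0.09 in E+F− (edgeR adjusted p of the difference = 0.0349). The sterol enzyme genes Dhcr7 and Cyp51 were lowered in E+F+ (-0.70 ± 0.12 and -0.46 ± 0.07) and had -0.05 ± 0.12 and -0.09 ± 0.07 in E+F−, but their differences did not pass (edgeR adjusted p = 0.13 and 0.162). The medians were -0.41 in E+F+ and -0.15 in E+F−. Without Set 3, 4 members were lowered in E+F+, 1 in E+F−, and no difference passed (the edgeR adjusted p of Mvd was then 0.129).

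The 7 genes raised in E+F+ only included Actc1, cardiac actin (chr2:114047282-114053548). It was at 4.3, 5.83 and 6.42 TPM in E+F+ cells with IWR-1, against 0.74, 1.21 and 1.35 TPM with DMSO, and 8.39, 15.6 and 11.7 TPM in E+F− cells with IWR-1, against 10.5, 13.9 and 9.54 TPM with DMSO. In E+F+ the 3 IWR-1 libraries stood above the 3 DMSO libraries, while the ranges overlapped in E+F−. Its effects were 2.32 ± 0.22 in E+F+ and 0.14 ± 0.17 in E+F−, a difference of 2.17 (95% interval 1.55 to 2.80, edgeR adjusted p = 0.00871). Among 15 cardiac contractile and hormone genes, 6 were raised and 1 lowered in E+F+, and 1 was raised and 2 lowered in E+F−. The shares over all genes were 0.621% and 1.06% in E+F+ and 2.69% and 2.65% in E+F−. Only Actc1 passed for the difference. Tnnc1, cardiac troponin C, was close, with -0.17 ± 0.14 in E+F+ and -1.26 ± 0.16 in E+F− (edgeR adjusted p of the difference = 0.0504), and Tnni3, cardiac troponin I, was lowered in E+F− at -1.34 ± 0.30 with a difference of 1.39 ± 0.47 (edgeR adjusted p = 0.264). The sum of 5 cardiac markers, Actc1 among them, ran from 40.6 to 58.6 TPM in E+F+ with IWR-1, against 14 to 25.2 TPM with DMSO, and from 42.9 to 183 TPM in E+F− with IWR-1, against 24.4 to 39.7 TPM with DMSO. In E+F− the higher sum lay mostly in Myl7, at 172, 107 and 27.8 TPM with IWR-1, against 18.6, 24.4 and 12.1 TPM with DMSO. Tnnt2, another of the 5, was at 0.68, 0.85 and 2.15 TPM there with IWR-1, against 0.67, 0.78 and 1.98 TPM with DMSO. Without Set 3, 4 of the 15 were raised in E+F+, and Actc1 still passed. Egr1, an immediate early factor, had 1.04 ± 0.17 in E+F+ and -0.18 ± 0.15 in E+F− (edgeR adjusted p of the difference = 0.0426) and lost its call without Set 3 (edgeR adjusted p = 0.0652). The others, named after their values were seen, were Id4, the actin-linked gene Klhl30 (2.02 in E+F+), the calcium channel subunit gene Cacna2d2 (0.76), the semaphorin gene Sema6a (0.70) and Gse1 (0.58).

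**Figure D4:**
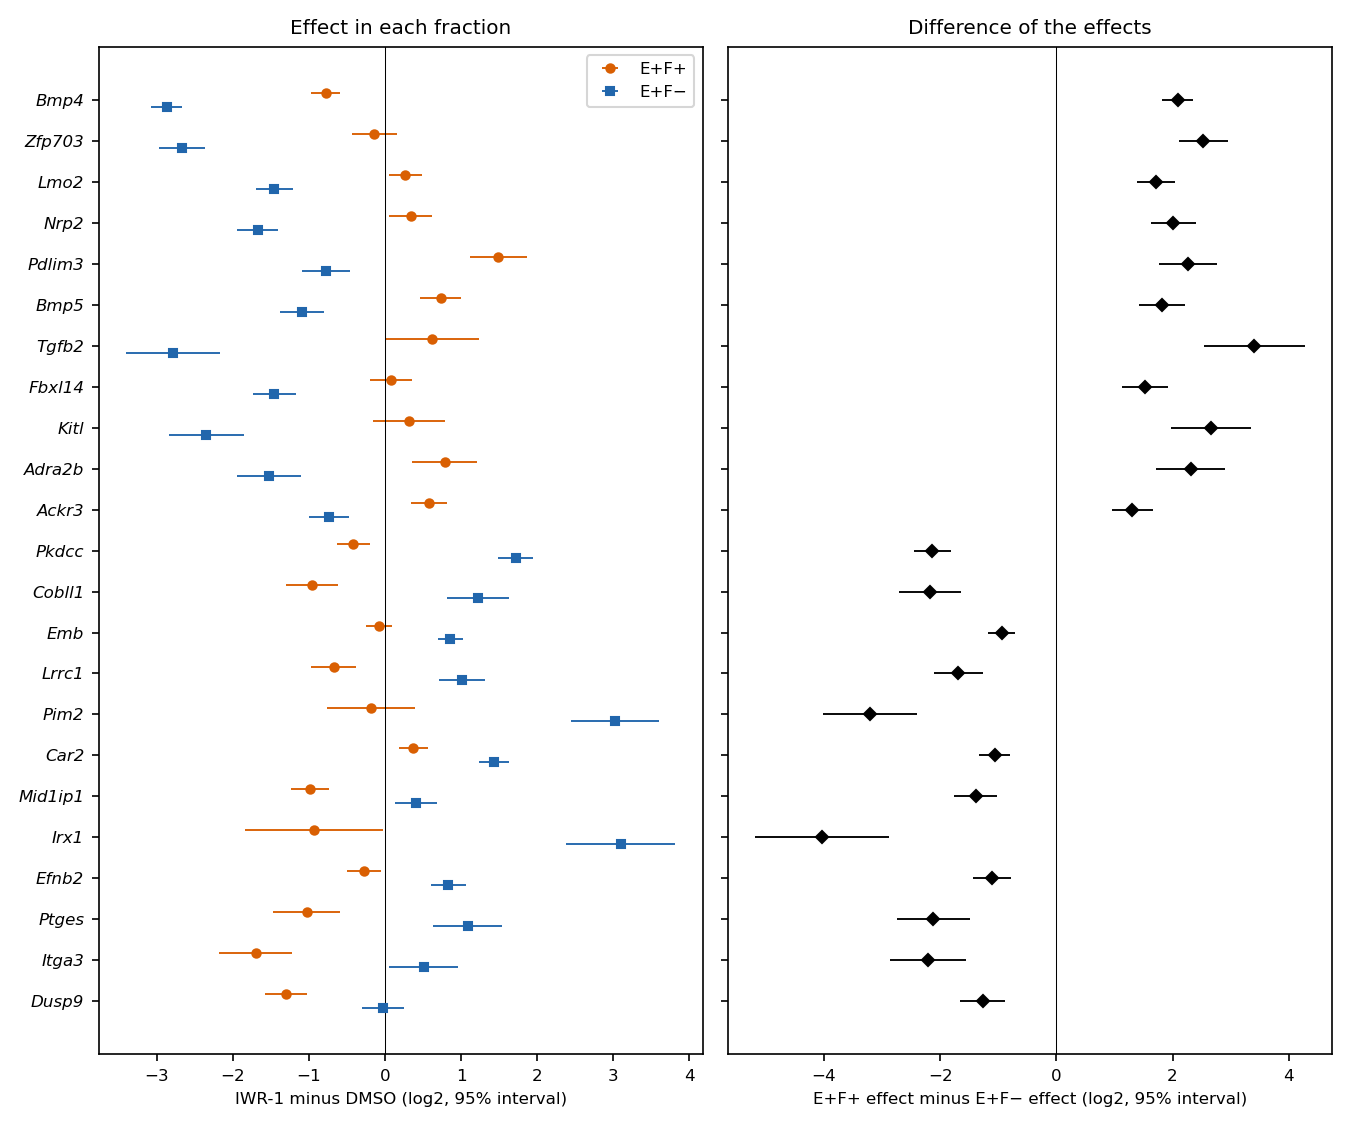
IWR-1 minus DMSO (log2) with 95% intervals in E+F+ (circles) and E+F− (squares) on the left, and the difference E+F+ minus E+F− with its interval on the right, for 11 positive and 12 negative differences among those with the smallest adjusted p. The genes were chosen by the p of this difference, so by that choice no interval of a difference crosses 0. The intervals reach from 1.81 to 2.36 for Bmp4 and from -5.18 to -2.88 for Irx1, which was under 1 CPM in E+F+.

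In 11 genes IWR-1 changed the 2 fractions in opposite directions, 7 raised in E+F+ and lowered in E+F−, and 4 the other way. Pdlim3, a protein of the muscle Z-disc (chr8:45885461-45919548), was at 18.8, 18 and 5.05 TPM in E+F+ cells with IWR-1, against 5.27, 5.91 and 2.68 TPM with DMSO, and 22.1, 24.6 and 34.7 TPM in E+F− cells with IWR-1, against 40.6, 45 and 62.5 TPM with DMSO. IWR-1 and DMSO ranges did not overlap in E+F−, and within each Set of E+F+ the IWR-1 library was the higher. Its effects were 1.49 ± 0.17 in E+F+ and -0.77 ± 0.14 in E+F−, a difference of 2.27 (95% interval 1.77 to 2.76, edgeR adjusted p = 0.00357). Bmp5, a BMP ligand (chr9:75775364-75900310), was at 33.6, 29.4 and 14.7 TPM in E+F+ cells with IWR-1, against 16.4, 18.3 and 10.3 TPM with DMSO, and 6.5, 9.74 and 2.89 TPM in E+F− cells with IWR-1, against 16.9, 21.5 and 5.74 TPM with DMSO. Every Set moved up in E+F+ and down in E+F−, with effects of 0.73 ± 0.12 in E+F+ and -1.09 ± 0.13 in E+F−, a difference of 1.82 (95% interval 1.42 to 2.22, edgeR adjusted p = 0.00357). Ackr3, a scavenging receptor of Cxcl12, had 0.58 ± 0.11 in E+F+ and -0.73 ± 0.12 in E+F− (edgeR adjusted p of the difference = 0.00835). Jph2, junctophilin of heart muscle, had 0.90 ± 0.14 in E+F+ and -0.80 ± 0.15 in E+F− (edgeR adjusted p of the difference = 0.00851), Celsr1, a planar polarity cadherin, 0.80 ± 0.14 in E+F+ and -0.69 ± 0.12 in E+F− (edgeR adjusted p of the difference = 0.00851), Tmem119 0.69 ± 0.13 in E+F+ and -0.77 ± 0.13 in E+F− (edgeR adjusted p of the difference = 0.00837), and the zinc exporter gene Slc30a1 0.53 ± 0.11 in E+F+ and -0.45 ± 0.11 in E+F− (edgeR adjusted p of the difference = 0.0224).

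Among the 4 genes of the reverse pattern, Cobll1, an actin-binding protein gene (chr2:65088339-65239403), was at 18.4, 16.8 and 18.7 TPM in E+F+ cells with IWR-1, against 38.9, 34.3 and 30.9 TPM with DMSO, and 5.05, 4.3 and 5.63 TPM in E+F− cells with IWR-1, against 1.45, 2.06 and 3.7 TPM with DMSO. The ranges of IWR-1 and DMSO libraries were separate in both fractions, with effects of -0.96 ± 0.15 in E+F+ and 1.22 ± 0.18 in E+F−, a difference of -2.18 (95% interval -2.71 to -1.65, edgeR adjusted p = 0.00645). Lrrc1, a scaffold of epithelial polarity, was at 12.8, 11.5 and 11.4 TPM in E+F+ cells with IWR-1, against 20.3, 19.1 and 16.8 TPM with DMSO, and 18.3, 20.6 and 19.3 TPM in E+F− cells with IWR-1, against 9.7, 8.88 and 13 TPM with DMSO, with effects of -0.67 ± 0.13 in E+F+ and 1.01 ± 0.13 in E+F−, a difference of -1.68 (95% interval -2.11 to -1.26, edgeR adjusted p = 0.00645). Ptges, which makes prostaglandin E2, had -1.03 ± 0.20 in E+F+ and 1.09 ± 0.20 in E+F− (edgeR adjusted p of the difference = 0.0105) and Schip1, named after its values were seen, -0.49 in E+F+ and 0.44 in E+F−. The class held 4 genes without Set 3, 6 with all 18 libraries in 1 fit and 20 with DESeq2.

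**Figure D5:**
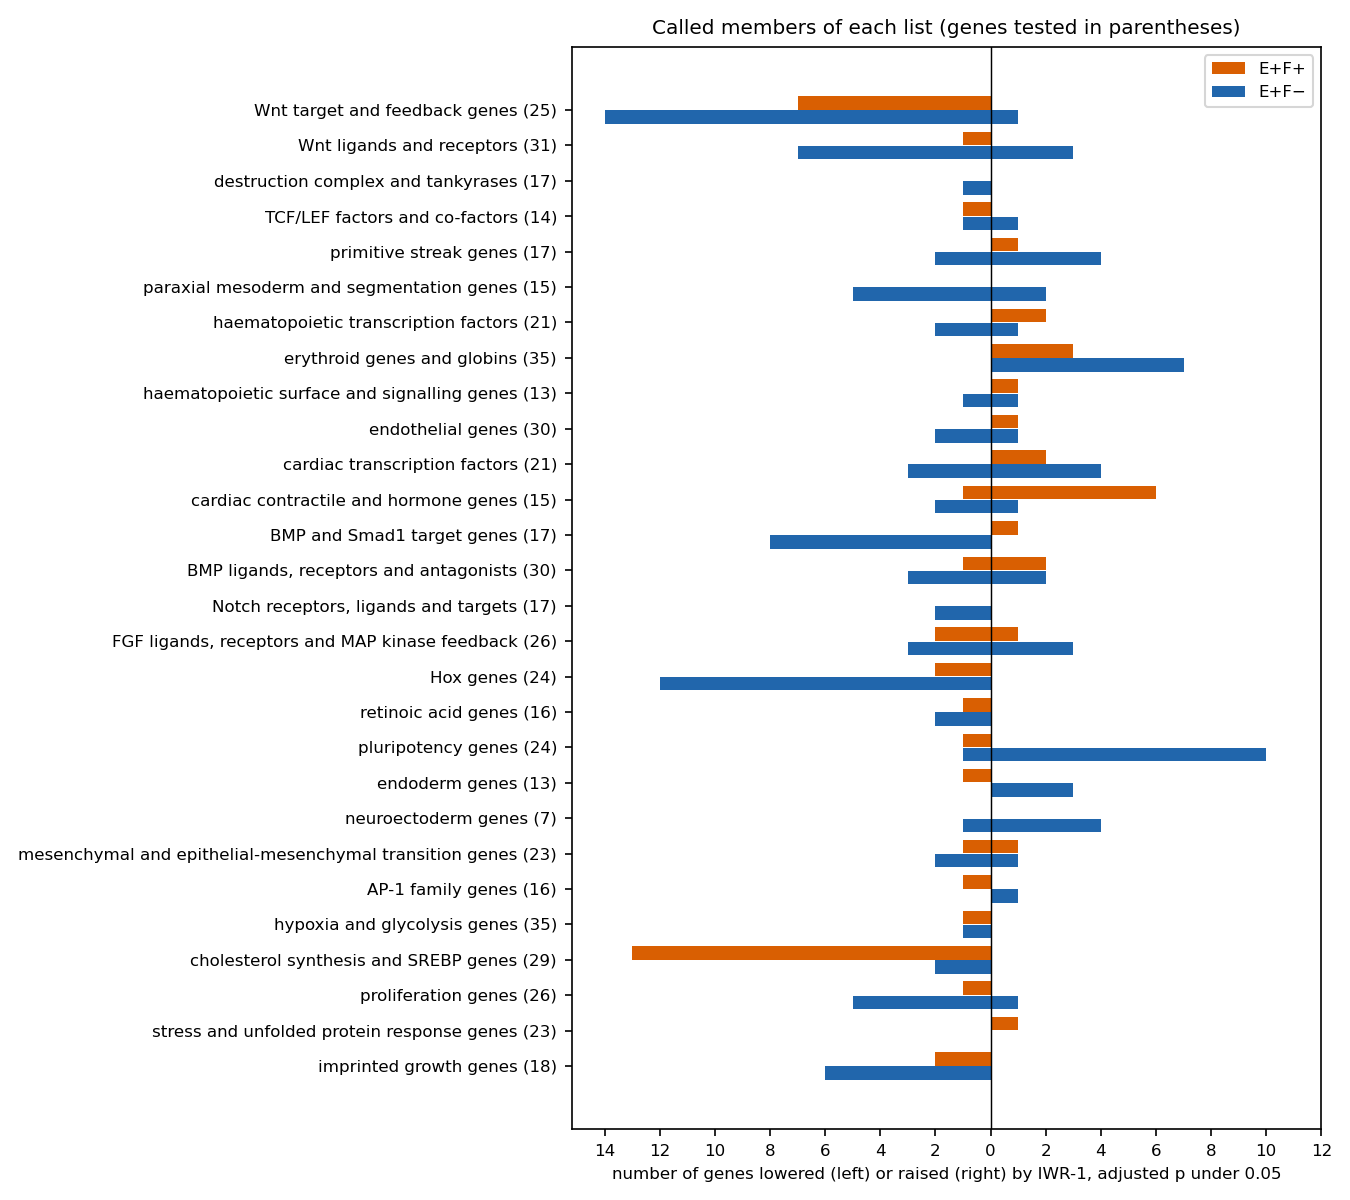
Number of genes of each of 28 lists that passed at an adjusted p under 0.05, lowered by IWR-1 to the left of 0 and raised to the right, for E+F+ (upper bar of each pair) and E+F− (lower bar). The longest bars are the Wnt targets lowered in E+F− (14 of 25), cholesterol genes lowered in E+F+ (13 of 29), Hox genes lowered in E+F− (12 of 24) and pluripotency genes raised in E+F− (10 of 24).

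Of 25 Wnt target and feedback genes, 7 were lowered in E+F+ and 14 in E+F−, where 1 rose (Sfrp1, a secreted Wnt antagonist, with 0.12 in E+F+ and 2.08 in E+F−, named after its values were seen). Over all genes 1.06% were lowered in E+F+, and 2.65% were lowered and 2.69% raised in E+F−. The difference passed for 4, positive for Dkk1, Nkd1 and Tnfrsf19 and negative for Sfrp1. Axin2, the feedback scaffold often used as a reporter of the pathway, was at 10.3, 8.5 and 6.05 TPM in E+F+ cells with IWR-1, against 12.5, 12.7 and 13.3 TPM with DMSO, and 16.4, 22.4 and 21.2 TPM in E+F− cells with IWR-1, against 66.8, 57.9 and 80.0 TPM with DMSO. All 3 E+F− DMSO libraries stood above the rest. Its effects were -0.67 ± 0.18 in E+F+ and -1.68 ± 0.17 in E+F−, a difference of 1.00 (95% interval 0.45 to 1.56, edgeR adjusted p = 0.118). So it was lowered in E+F−, while the E+F+ effect and the difference did not pass (edgeR adjusted p = 0.116 for E+F+). Wif1 was listed at 0 to 0.29 TPM in the 12 libraries and was not tested. The destruction complex and tankyrase genes, the machinery on which IWR-1 acts, had no difference passing among 17, and Axin2 in E+F− was the 1 member that passed in a fraction. Over all genes 0.939% passed for the difference, 1.68% in E+F+ and 5.34% in E+F−.

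Of 24 Hox genes, 2 were lowered in E+F+, where 1.06% of all genes were, and 12 in E+F−, where 2.65% of all genes were. The median difference was 0.97. Hoxd1 passed in both fractions (-1.07 and -2.54, difference 1.47 ± 0.32, edgeR adjusted p = 0.0746), and Hoxb4, with -0.24 in E+F+ and -1.50 in E+F−, passed in E+F−. Without Set 3 the counts were 2 in E+F+ and 13 in E+F−. E+F+ cells hardly expressed several streak and paraxial mesoderm genes. Mixl1, a streak factor, was at 12, 26.4 and 29.2 TPM in E+F− cells with IWR-1, against 103, 83 and 172 TPM with DMSO, an effect of -2.34 ± 0.25, but at most 1.07 TPM in any E+F+ library, and its difference did not pass (edgeR adjusted p = 0.147). T passed in neither fraction.

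In the blood gene lists the difference passed for Lmo2 and Car2 only. Of 21 haematopoietic transcription factors, 2 were raised in E+F+, and 2 were lowered and 1 was raised in E+F−. Over all genes 0.621% were raised in E+F+, 2.65% were lowered and 2.69% raised in E+F−, and 0.939% passed for the difference. Gata2 had -0.10 ± 0.16 in E+F+ and was lowered in E+F− (-1.12 ± 0.18), with a difference of 1.02 ± 0.24 that did not pass (edgeR adjusted p = 0.101). Tal1, Gata1, Klf1 and Gfi1b passed in no test, with differences of 0.29 ± 0.29, -0.37 ± 0.22, -0.62 ± 0.33 and -0.03 ± 0.22. In E+F+ they were all well expressed, and Tal1 was at 80.4, 57.1 and 112 TPM in E+F+ cells with IWR-1, against 46.4, 38.1 and 93.8 TPM with DMSO. Of 35 erythroid genes, 3 were raised in E+F+ (0.621% of all genes were) and 7 in E+F− (2.69% of all genes), but 1 and 1 without Set 3, which had the highest sum of blood markers, and the α-globin genes are near-identical copies whose reads RSEM divided by a model. Jdp2, an AP-1 family repressor that the study names, was at 25.8, 28.9 and 24.3 TPM in E+F+ cells with IWR-1, against 58.7, 56.8 and 45.7 TPM with DMSO, and 4.38, 12.5 and 4.81 TPM in E+F− cells with IWR-1, against 6.44, 13.1 and 9.46 TPM with DMSO. The E+F+ groups did not overlap. Its effects were -1.04 ± 0.15 in E+F+ and -0.41 ± 0.17 in E+F−, a difference of -0.63 (95% interval -1.13 to -0.12, edgeR adjusted p = 0.298), so it was lowered in E+F+ while the difference from E+F− did not pass.

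Of the other genes the study named, Gata4, Nkx2-5, Hand2, Mesp1, Mesp2, Eng and Kdr passed in neither fraction and not for the difference. Gata4 was at 41.9, 36.6 and 20.4 TPM in E+F+ cells with IWR-1, against 22.9, 26.1 and 19.7 TPM with DMSO, and 137, 163 and 45.9 TPM in E+F− cells with IWR-1, against 92.7, 113 and 67.3 TPM with DMSO. Its difference was 0.17 ± 0.30 (95% interval -0.51 to 0.85), and that of Kdr 0.34 ± 0.41 (-0.59 to 1.26). Tbx5, a heart field factor, was at 2.17, 2.15 and 0.82 TPM in E+F− cells with IWR-1, against 0.17, 0.2 and 0.16 TPM with DMSO. Its effects were 0.81 ± 0.40 in E+F+ and 3.26 ± 0.40 in E+F−, where it rose, and the difference of -2.45 ± 0.57 did not pass (edgeR adjusted p = 0.102). Flt1, the VEGF decoy receptor, had effects of opposite sign that did not pass, -1.23 ± 0.39 in E+F+ and 1.54 ± 0.46 in E+F− (edgeR adjusted p of the difference = 0.0782).

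The remaining lists are described in brief. None passed among the lists of primitive streak, paraxial mesoderm, Notch, retinoic acid, hypoxia, AP-1 and haematopoietic surface genes, and in each of these lists at least 1 member passed in a fraction. The glycolysis genes Pkm, Slc2a1 and Pgam1 had effects of opposite sign, -0.15, -0.79 and -0.28 in E+F+ and 0.57, 0.72 and 0.42 in E+F−. None of these passed. The median of the 35 hypoxia and glycolysis genes was -0.07 in E+F+ and 0.57 in E+F−, and of its members Epas1 passed. The imprinted growth genes had 2 lowered in E+F+ and 6 in E+F− of 18, with Peg3 and Cdkn1c passing for the difference, both positive. Over all genes 1.06% were lowered in E+F+, 2.65% were lowered and 2.69% raised in E+F−, and 0.503% had a positive difference that passed. The Wnt ligands and receptors had 1 lowered in E+F+ and 7 lowered and 3 raised in E+F− of 31, and Wnt6 just missed for the difference, with -1.17 ± 0.43 in E+F+ and -4.16 ± 0.36 in E+F− (edgeR adjusted p of the difference = 0.0518).

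Unsorted reaggregates, which entered none of these tests, gave a description of each class in other libraries, where 7.74% of genes passed between IWR-1 and DMSO. Of the 70 shared genes, 61 passed in unsorted cells, all in the shared direction. Of 23 E+F+-only genes 10 passed, all in the direction of E+F+, and of 85 E+F−-only genes 29 passed, all in the direction of E+F−. The effect in the other fraction had that same sign in 4 of the 10 and 18 of the 29, so for these the direction does not separate the fractions. Of the 11 opposite genes, 2 passed, both in the direction of E+F+ (Cobll1 and Ptges). Across all genes tested, which are not independent replicates, Pearson's r between the E+F+ and E+F− effects was 0.24, and 59.7% had the same sign. Across the 11623 genes with at least 1 CPM in both fractions r was 0.32 (60.0% of the same sign), and across the 730 of these with at least 1 call, which were chosen for their effects, r was 0.45 (73.8%).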

How the data were processed

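RNA-seq libraries of E+F+ and E+F− reaggregates (12), and of unsorted ones (6), were read from tables that the authors deposited as RSEM expected counts and as TPM. The submitters' processing notes name CASAVA 1.8.2, Bowtie 0.12.9, RSEM 1.2.3 and mm10. The library kit does not mark strand, so overlapping antisense genes cannot be separated, and near-identical genes share reads by model. The study tested with EBSeq, which was not used here. The study describes its RNA-seq replicates as biologically independent, and the labels do not say what libraries of a Set share.

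Expected counts were rounded and genes filtered by group (filterByExpr). edgeR 4.0.16 (R 4.3.3, TMM, quasi-likelihood) was fitted to 12 libraries with 6 blocks (fraction and Set) and an IWR-1 effect in each fraction, leaving 4 residual degrees of freedom. The difference of both effects was tested for all 13532 genes with Benjamini-Hochberg adjustment. A call is an adjusted p under 0.05. The 95% intervals are not adjusted for the number of genes. Where a list is described, members were counted with no test of the list. TPM values are as deposited and served for levels. Coordinates are from GENCODE M21 by symbol (12882 genes).

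Same-numbered libraries deviated together in all 6 pairs (correlation 0.303 to 0.779, against -0.721 to 0.467 between different Sets), which is taken as pairing by Set. Deviations from a mean of 3 libraries cancel out, which by construction lowers the values between Sets. The 2 ranges overlap, so pairing remains an assumption, above all for Sets 1 and 2 of E+F−. No 2 libraries were duplicates. Counts for 13532 genes were also simulated from the same blocked model with both IWR-1 effects removed. Known differences were then given to 100 genes of each size, chosen among genes of higher counts. Of these, 74% of 2-fold and 98% of 4-fold differences were recovered, with 6 false calls. The model and its fitted dispersion were taken as right, and recovery for genes of low counts was not measured.

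Genes were named by rule: the 12 positive and 12 negative differences with the smallest adjusted p and at least 5 CPM, the 8 lowered and 8 raised shared genes with the largest smaller effect, up to 10 opposite genes, up to 3 genes per list, and genes the study names. Some genes that the rule names are not reported here. Members and lists were chosen with earlier results of these data known. Alternatives were no block, other size factors, DESeq2 1.42.0, limma 3.58.1 on log2(TPM + 1) and log2(TPM + 0.1), other filters, all 18 libraries, an adjusted p under 0.10 and leaving out each Set or pair.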

Additional observations from a re-analysis of the deposited data

Results flagged for a closer look

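For 48 of the named genes the IWR-1 effect differed between E+F+ and E+F− by the test of the difference itself (edgeR, adjusted p under 0.05). Differences are E+F+ minus E+F−, log2. Here "only" means that the effect in the other fraction did not pass, not that it was absent. Hand1 and Car2 in E+F+ and Mvd in E+F−, for example, changed in the same direction in all 3 Sets, with effects of -0.56, 0.37 and -0.29. In each, all 3 Sets showed the direction, as they did in all 127 genes that passed. The genes were chosen by the test on these same Sets, so this adds no support. Among genes lowered in both fractions, and more so in E+F−, the differences were 2.09 for Bmp4, 1.36 for Tnfrsf19, 2.20 for Dkk1 and 1.62 for Nkd1. Among genes lowered in E+F− only they were 2.53 for Zfp703, 1.72 for Lmo2, 2.01 for Nrp2, 3.41 for Tgfb2, 1.53 for Fbxl14, 2.67 for Kitl, 2.31 for Adra2b, 2.46 for Wnt5b, 1.45 for Hand1, 2.13 for Isl1, 1.06 for Bambi, 1.88 for Gata3, 1.82 for Foxf1, 0.80 for Cdkn1c, 1.21 for Cdkn1a and 1.03 for Peg3. Among genes raised in E+F− only they were -2.13 for Pkdcc, -0.94 for Emb, -3.21 for Pim2, -1.06 for Car2, -4.03 for Irx1 (under 1 CPM in E+F+, where a change could hardly be measured), -1.11 for Efnb2, -0.86 for Tcf7l1, -0.85 for Spry2, -1.48 for L1td1, -1.75 for Zic2 and -0.91 for Cdh1. Among genes lowered in E+F+ only they were -1.39 for Mid1ip1, -2.21 for Itga3, -1.27 for Dusp9, -0.96 for Cxcr4 and -0.71 for Mvd. Among genes raised in E+F+ only they were 2.17 for Actc1 and 1.23 for Egr1. Among genes raised in E+F+ and lowered in E+F− they were 2.27 for Pdlim3, 1.82 for Bmp5, 1.31 for Ackr3, 1.46 for Tmem119, 1.70 for Jph2, 1.49 for Celsr1 and 0.99 for Slc30a1. Among genes lowered in E+F+ and raised in E+F− they were -2.18 for Cobll1, -1.68 for Lrrc1 and -2.12 for Ptges. All 48 kept their sign under every alternative tried, 40 still passed without Set 3, and 6 passed without the replicate block. The alternatives reuse the libraries by which the 48 were chosen, so a kept sign is no independent support.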

How the results depend on the processing

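The 4-degree-of-freedom design rests on the pairing by Set. With no replicate block, 10 E+F+ effects, 136 E+F− effects and 6 differences passed, with 4 shared, 0 opposite, 0 E+F+-only and 6 E+F−-only genes (for the E+F+ effect and the difference, 776 and 629 genes had an unadjusted p under 0.05 in edgeR). DESeq2 with the block gave 388 E+F+ effects and 313 differences, 125 of them among the 127, with 107 shared, 20 opposite, 58 E+F+-only and 193 E+F−-only genes. limma on log2(TPM + 1) gave 197 differences, 6 opposite and 154 E+F−-only genes, and on log2(TPM + 0.1) 131 E+F+ effects, 4 opposite and 12 E+F+-only genes. Without a filter on low counts there were 191 differences and 35 E+F+-only genes, and with all 18 libraries 6 opposite genes. At an adjusted p under 0.10 there were 444 E+F+ effects, 1147 E+F− effects and 227 differences, with 129 shared, 21 opposite, 46 E+F+-only and 142 E+F−-only genes. The cause of these changes was not tested. Leaving out a Set or a pair gave 0 to 444 E+F+ effects, 382 to 727 E+F− effects, 19 to 230 differences, 0 to 88 shared, 0 to 13 opposite, 0 to 34 E+F+-only and 19 to 157 E+F−-only genes. The differences of all 48 named genes that passed kept their sign under all 17 alternatives. These genes were chosen in the same libraries, so the kept sign largely follows from that choice.
Some differences that did not pass changed sign. With limma on log2(TPM + 1) and log2(TPM + 0.1) these were Pmp22 (0.0895 and 0.0919), Slc4a1 (0.961 and 1.49), Mef2c (0.273 and 0.105), Oit3 (0.667 and 0.286), Atp2b4 (0.247 and 0.150), Epas1 (-0.529 and -0.000558), Gfi1b (0.222 and 0.180) and, with the second alone, Lhx1 (0.0416). With DESeq2 these were Slc4a1 (0.0490), Tnc (-0.118) and Lhx1 (0.0033), and with no replicate block Dlk1 (0.0211) and Smad1 (-0.00422). Leaving out a Set or a pair gave -0.0719 to 0.346 for Notum, -0.16 to 0.977 for Agpat9, -0.378 to 0.191 for Pmp22, -0.758 to 0.303 for Dlk1, -0.415 to 0.0731 for Slc4a1, -1.4 to 0.706 for Tnc, -0.416 to 0.181 for Mef2c, -0.463 to 0.361 for Lhx1, -0.688 to 0.0161 for Oit3, -0.261 to 0.21 for Atp2b4, -0.266 to 0.265 for Epas1, -0.0721 to 0.669 for Tal1, -0.224 to 0.215 for Gfi1b, -0.178 to 0.397 for Gata4, -0.479 to 0.113 for Hand2, -0.237 to 0.867 for Kdr, -0.269 to 0.336 for Smad1, -0.146 to 0.435 for Id2 and -0.0245 to 0.641 for Id3.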

Other observations

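The levels give another view of the 127 genes. Of 47 genes lowered in E+F− only, 17 had a lower level in E+F+ than in E+F− with IWR-1 and 34 with DMSO. Of the 4 genes lowered in E+F+ and raised in E+F−, 3 were lower in E+F+ than in E+F− with IWR-1 and 0 with DMSO. The direction of both shifts follows from how these classes were chosen. Over all 13532 genes 6773 were lower in E+F+ with IWR-1 and 6811 with DMSO. Over all 127 the gap between the fractions was smaller with IWR-1 in 77 (60.6%), and over all genes tested in 54.8%. Among the fraction-only and opposite classes the share ran from 42.9% (7 genes raised in E+F+ and lowered in E+F−) to 100% (the 4 of the reverse pattern). It was 47.4% for the 38 genes raised in E+F− only. These counts use the same libraries as the differences and carry no test.

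Several genes lay just outside the threshold for the difference. Wnt6, a Wnt ligand, was at 0.78, 0.38 and 0.27 TPM in E+F+ cells with IWR-1, against 1, 1.05 and 1.06 TPM with DMSO, and 0.61, 0.75 and 0.82 TPM in E+F− cells with IWR-1, against 18.6, 6.95 and 19.5 TPM with DMSO, with effects of -1.17 ± 0.43 in E+F+ and -4.16 ± 0.36 in E+F− (edgeR adjusted p of the difference = 0.0518). Zim1, an imprinted zinc-finger gene, had -0.35 ± 0.22 in E+F+ and -2.10 ± 0.26 in E+F− (edgeR adjusted p of the difference = 0.0507), and Nrp1, the partner of Nrp2, 0.22 ± 0.13 in E+F+ and -0.72 ± 0.13 in E+F− (edgeR adjusted p of the difference = 0.0507).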
